A study of Bos taurus with 18 samples.

Results

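Among 18 arrays of RNA from the cells of cow's milk, the 12 not labelled mastitis (6 labelled healthy and 6 labelled endometritis) were taken as 1 set and placed in order of a secretory score. The score of an array was the mean log2 value of 4 genes of the milk-secreting epithelium, namely ELF5, BTN1A1, ABCG2 and FASN. The order was thus chosen by measured values, those of the 4 genes. The question was which other genes rank the 12 arrays as this score does, or the opposite way. The 6 mastitis arrays entered the choice of probe sets and the level above which a gene was ranked, and are otherwise given as values beside the rest. Each array held the RNA of 1 cow (Bos taurus), and no agent or genotype is named for any group. Healthy cows had no clinical sign of disease, a normal udder and fewer than 100000 cells per ml of milk. They were 2 to 4 years old, in lactations 1 to 3 apart from single animals in their 4th and 8th, and most were sampled 10 to 100 days after calving. A cow no older than 4 cannot have calved 8 times, so one of these labels is in doubt. Mastitis is inflammation of the udder itself. Endometritis affects the uterine lining, away from the udder, and those cows, like the cows with mastitis, were in lactations 1 to 8, 10 to 220 days after calving. The limit on the milk cell count is recorded here for the healthy cows only, so it does not show the state of the udder in endometritis cows. Farms and clinics supplied the animals, and which cow came from where was not used here. What places 1 array on the gradient is thus also 1 cow, with her own stage, age and farm.

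The milk-secreting cell lines the alveoli of the udder. Under prolactin it makes caseins and whey proteins, lactose, and fat droplets that leave the cell wrapped in its own membrane, and some of these cells are shed into milk alive. Milk of an uninflamed udder also carries macrophages and lymphocytes and few neutrophils, so RNA from milk cells is a mixture of epithelial and immune transcripts. ELF5 is a transcription factor that drives the secretory fate, BTN1A1 (butyrophilin) coats the fat globule, ABCG2 pumps riboflavin and drugs into milk, and FASN builds fatty acids. In RNA from a mixture, fewer cells of a type and less RNA per cell cannot be told apart, and this holds for every value below.

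The score ran over 5.82 log2 units. On healthy arrays 1 to 6 it was 9.99, 11.0004, 11.36, 11.42, 11.12 and 8.43, with a mean of 10.55 ± 1.16 (SD, n = 6). On endometritis arrays 1 to 6 it was 11.67, 10.79, 11.64, 9.40, 5.84 and 10.01, with a mean of 9.89 ± 2.18 (SD, n = 6). The groups overlapped over most of the range: endometritis arrays 1 and 3 were the highest of the 12, endometritis array 5 was by far the lowest, and healthy array 6 was next. The mastitis arrays ran from 3.38 to 5.06, all below the lowest of the 12. No test between groups was made, because the arrays were ordered by these same measured values.

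**Figure D1:**
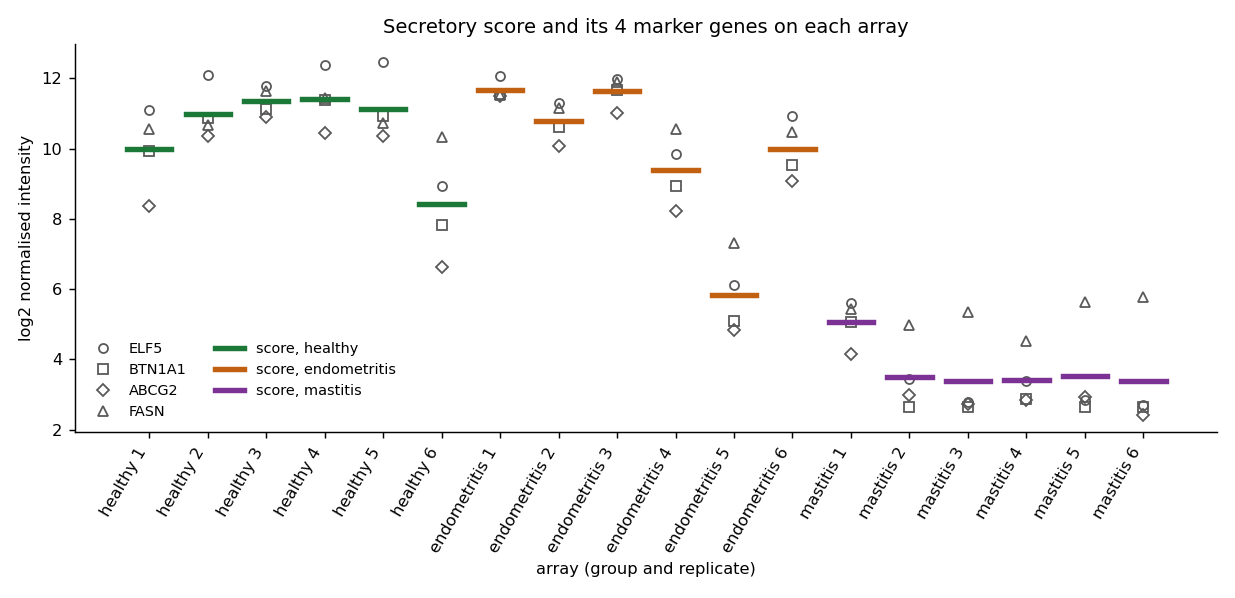
The y axis is log2 normalised intensity and the x axis lists the 18 arrays. Open symbols are the 4 marker genes, and a thick bar is their mean, the secretory score. The score is 9.99 to 11.42 on 5 healthy arrays and 8.43 on the 6th, 9.40 to 11.67 on 5 endometritis arrays and 5.84 on the 5th, and 3.38 to 5.06 on the mastitis arrays.

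The 4 markers largely agreed on that order. Against the mean of the other 3 over the 12 arrays, Spearman's rho was 0.979 for BTN1A1, 0.951 for ABCG2, 0.923 for FASN and 0.797 for ELF5. ELF5 was the loosest inside the healthy arrays, with a rho of 0.60, where array 5 had the highest ELF5 (12.48) and array 4 the highest BTN1A1 (11.40). On endometritis array 5 the markers read 6.13 for ELF5, 5.08 for BTN1A1, 4.85 for ABCG2 and 7.32 for FASN. On healthy array 6 FASN read 10.33 against its median of 10.70 over the 12 arrays, and ABCG2 6.62 against its median of 10.22.

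Several technical measures moved with the score. The spiked hybridisation controls had a rho of 0.713 with it over the 12 arrays (0.543 inside healthy, 0.771 inside endometritis). The dap controls, bacterial transcripts that the array carries as labelling controls, had a rho of 0.720 (0.429 and 0.943). The excess of the 3′ over the 5′ GAPDH probe set, a sign of RNA integrity or labelling length, had a rho of 0.657 (0.943 and 0.543), so it was larger on high-scoring arrays. The number of probe sets above the median of all values had a rho of 0.776 (0.943 and 0.657). The number in each cow's label, whose meaning is not given in the sources used here, had a rho of -0.280 (-0.200 and -0.771). The counts below are given also with arrays rescaled and with these measures corrected for, and their part in the results was not tested beyond that.

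A gene was ranked if its mean over the 12 arrays was above 2.55, the median of all deposited values, which left 6513 genes beside the 4 markers. Of these, 419 (6.43% of the genes ranked) followed the score with a rho of at least 0.8, and 487 (7.48%) opposed it with a rho of -0.8 or below. The rule that chose these genes used the same values, so the counts are descriptions without a p-value. Both shares are the background for the counts of each gene list below. At the threshold, the last gene inside had a rho of 0.80 and the next 21 outside 0.7972, and on the other side -0.8007 and -0.7986. All genes together had a median rho of -0.224, and 38.4% were above 0. With each array centred that median turned to 0.105, so the lean of all genes to the opposing side depended on the scaling. Genes past the threshold also varied more: the median range over the 12 arrays was 2.26 log2 units for following genes, 2.05 for opposing genes and 1.35 for all genes.

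The counts depended on how arrays were scaled, while nearly all genes past the threshold kept their sign. With each array centred on the median of its brighter probe sets, 716 genes followed and 413 opposed, and following genes made up 63.4% of the calls instead of 46.2%. With each array scaled to its hybridisation controls, 2.40% of the genes ranked followed and 2 genes opposed, so that 98.7% of the calls followed. Of the 419 following genes, 403 kept a positive rho under the latter scaling and 140 stayed at 0.8 or above. All 487 opposing genes kept a negative rho under it, with a median of -0.615, and 0 of them stayed at -0.8 or below. With values corrected for the GAPDH difference 129 genes followed and 133 opposed, and with values corrected for the dap controls, a correction added after seeing the data, 168 and 213. Without endometritis array 5, the lowest of the 12, 327 genes followed and 373 opposed, and 293 and 311 of these were among the 419 and the 487. Without endometritis array 1, the highest, 882 genes opposed.

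Genes were also ranked against the score inside each of the 2 groups of cows. Inside the healthy arrays 1235 genes (19.0%) had a rho of at least 0.6, and inside the endometritis arrays 1217 (18.7%). They shared 779 genes, 12.0% of those ranked, 63.1% of the healthy set and 64.0% of the endometritis set. On the opposing side 2149 genes (33.0%) were at -0.6 or below inside healthy and 1932 (29.7%) inside endometritis. The 1227 shared ones were 18.8% of the genes ranked, 57.1% of the first set and 63.5% of the second. Genes in opposite directions were few: 10 followed inside healthy and opposed inside endometritis, and 12 did the reverse. Across genes, which are not independent replicates, rho inside one group had a Spearman correlation of 0.713 with rho inside the other, and 80.2% of genes had the same sign in both. Of the 419 following genes 390 were at 0.6 or above in both groups, and of the 487 opposing genes 462 were at -0.6 or below in both. These genes had been chosen by their rho over the same 12 arrays, so that agreement is largely built in. The share of genes that reach 0.6 or -0.6 by chance with so few arrays was not computed. The hybridisation and dap controls, the GAPDH difference and the number of probe sets above the median also rose with the score inside both groups. The shared counts therefore cannot show by themselves that a secretory gradient repeats in each group.

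**Figure D2:**
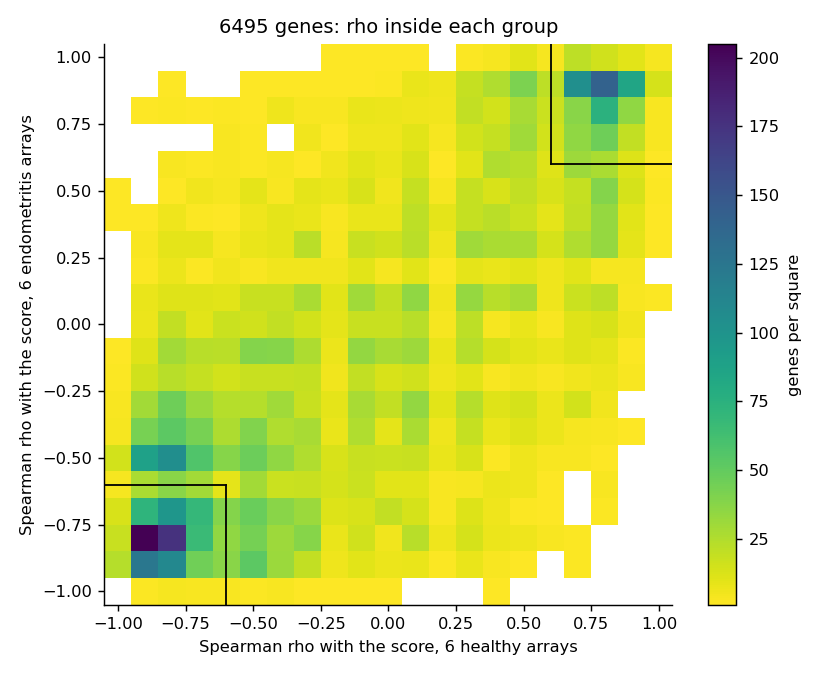
Each square counts genes by their Spearman rho with the score inside the 6 healthy arrays (x axis) and inside the 6 endometritis arrays (y axis), with darker colours for more genes. The boxes mark genes at 0.6 or above in both groups (779 genes) and at -0.6 or below in both (1227 genes), and the squares fill most densely inside these boxes.

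The gene closest to the score was RETREG1, a receptor for the turnover of endoplasmic reticulum. It ran from 4.16 through a median of 7.97 to 9.39, with a rho of 0.993 over the 12 arrays. Endometritis array 5 was lowest, healthy array 6 next and endometritis array 1 highest, and only healthy arrays 3 and 4 changed places against the order of the score. TAX1BP1, an autophagy receptor, had a rho of 0.986 and ran from 6.83 to 9.18. FGFBP1, a secreted carrier of fibroblast growth factors, had the same rho and ran from 4.25 to 9.58, and every mastitis array was at or below 2.79. ADGRL2, an adhesion receptor, followed with 0.986 as well, at low levels of up to 4.11. After these came SLC28A3, a nucleoside transporter, and SEPTIN4, SUOX, GSTM3, MUC15 and the nuclear receptor NR2F2, each at 0.979. TJP3, a tight-junction scaffold, and AGR2, a protein disulfide isomerase of mucus-secreting cells, were at 0.972. MUC1, HBS1L and UGP2 were at 0.965.

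The steepest of the following genes gained more than 1 log2 unit per unit of score. EFHD1, a mitochondrial calcium-binding protein, had a slope of 1.20, TRIM2, a ubiquitin ligase, 1.13, TFF3, a trefoil peptide of mucous epithelia, 1.12, and ALOX15, a lipoxygenase, 1.12. The gene listed as LOC282340 had a slope of 1.15. ALOX15 read 2.97 on endometritis array 5, 5.27 on healthy array 6 and 6.61 to 9.70 on the others. Without endometritis array 5 its slope was 1.20, so the lowest array did not set it. Over all following genes the median slope was 0.32 with that array and 0.54 without it.

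Milk proteins followed the score in the deposited scaling, but from close to the top of the scale. All 8 caseins and whey proteins ranked had a positive rho, with a median of 0.783 (0.571 inside healthy, 0.943 inside endometritis), and 3 were at 0.8 or above: LPO at 0.944, CSN1S1 at 0.895 and LALBA at 0.825. Inside healthy LALBA was at 0.371. Under scaling to the hybridisation controls LPO was at 0.818 and CSN1S1 at 0.587, but CSN3 at 0.35, LALBA at 0.259 and CSN2 at 0.21. The list's median fell as low as 0.304 among the alternatives run. CSN2, beta-casein, ran from 12.00 on endometritis array 5 to 13.52, with a median of 13.37 and a rho of 0.692. Its other 10 values lay between 13.03 and 13.51, and inside the healthy arrays its rho was 0.143. CSN3, kappa-casein, had a rho of 0.706 and ran from 12.85 to 14.18. PAEP, beta-lactoglobulin, ran from 13.34 to 14.23, the top of the deposited range, and had a rho of 0.627, which became negative under scaling to the hybridisation controls. LPO, the milk peroxidase, was expressed further down the scale and spread over 2.62 to 8.50, in step with the score in both groups (0.943 and 0.886). A score made of CSN2, CSN3, LALBA and PAEP in place of the 4 markers left 57 following and 94 opposing genes.

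The coat of the milk fat globule followed most closely of all lists. Of its 8 ranked genes 6 were at 0.8 or above and the median rho was 0.888 (0.829 and 0.914 inside the groups). MUC15, a membrane mucin, ran from 3.38 through 8.07 to 9.85, and MUC1, another, from 2.69 through 5.73 to 7.88. On both, endometritis arrays 1 and 3 were highest and endometritis array 5 lowest. XDH, the oxidoreductase that binds butyrophilin on the droplet, had a rho of 0.909 and ran from 8.33 to 12.17. PLIN2, which coats droplets inside the cell, had 0.902, MFGE8 (lactadherin) 0.874 and CIDEA, a droplet-fusing protein, 0.839. CD36, a fatty acid receptor that macrophages also carry, was at 0.231. SPP1, osteopontin, which macrophages also secrete, was at -0.517 and highest on endometritis array 5, at 13.85.

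The enzymes behind milk fat did not move as a block. Among 9 ranked genes of fatty acid synthesis 4 followed: IDH1 at 0.937, ACSS2, which activates acetate, at 0.874, SCD, the desaturase, at 0.846, and ACACA at 0.808. ACACA had a low mean of 2.83 and a range of 0.81 log2 units. Under scaling to the hybridisation controls its rho was 0.112, while ACSS2 was at 0.93 and SCD at 0.916. ACLY, which makes cytosolic acetyl-CoA from citrate, opposed at -0.804, with 4.81 to 5.54 on the 6 arrays of highest score and 6.12 to 7.36 on the other 6. Another probe set of IDH1 had a rho of -0.119, so its direction depends on the probe set. The list's median rho of 0.392 was 0.209 without endometritis array 5 and turned to -0.154 under scaling to the hybridisation controls. Of 13 ranked genes of triglyceride assembly and fatty acid uptake 3 followed and 2 opposed, with a median of 0.587. GPAM, the first acyltransferase, ran from 4.53 to 10.64 with a rho of 0.895, and GPAT4 had 0.876. ACSL5 (-0.825) and DGAT1, the last acyltransferase (-0.846, over a narrow range from 2.54 to 3.83), opposed. FABP3 and FABP4, fatty acid carriers typical of secretory and of fat or macrophage cells, parted: FABP3 had a rho of 0.769 and FABP4 -0.643. FABP4 ran from 4.07 on endometritis array 3 to 12.37 on endometritis array 5. Cholesterol synthesis lay near 0, with a median of 0.078 over 15 genes, 0 following and 1 opposing (ACAT2 at -0.818), and turned to -0.35 under the same scaling and to -0.141 without endometritis array 5.

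The list of lactose synthesis and sugar supply was divided. UGP2, which makes UDP-glucose, ran from 8.21 through 9.87 to 10.79 with a rho of 0.965. B4GALT1, the catalytic subunit of lactose synthase, had 0.937 and ran from 7.02 to 10.85. AQP3, a water and glycerol channel, had 0.942, and SLC35A2, the Golgi UDP-galactose carrier, 0.825. Under scaling to the hybridisation controls SLC35A2 was at 0.315, while UGP2 was at 0.874, B4GALT1 at 0.93 and AQP3 at 0.713. HK1 (-0.832) opposed and PGM1 was at -0.788, both on the path from glucose to UDP-glucose that other cells share. The galactose enzymes GALT, at 0.310, and GALK1, at -0.254, lay between, the sign of GALT turning under scaling to the hybridisation controls. SLC2A1, a glucose transporter, was at -0.147, a sign that turned when arrays were centred. Over the 11 ranked genes the median was -0.147, with 4 following and 1 opposing, and it turned to 0.231 when arrays were centred and to 0.073 without endometritis array 5.

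Prolactin signalling followed with a median rho of 0.716 over 8 ranked genes, 3 of them at 0.8 or above. PRLR, the prolactin receptor, had a rho of 0.958 and ran from 2.50 to 6.13, with the highest values on endometritis arrays 3 and 1. NFIB, a transcription factor of milk genes, had 0.909, and CISH, a feedback inhibitor that STAT5 induces, 0.888. CEBPB was at -0.545. Of the list's 18 measured members 10, among them EGFR, ERBB3 and ESR1, were too dim to rank.

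Structural genes of luminal epithelium followed as well, with a median rho of 0.762 over 15 ranked genes (0.60 and 0.829 inside the groups) and 6 at 0.8 or above. ESRP1, an epithelial splicing factor, ran from 2.54 to 7.31 with a rho of 0.937. SPINT2, a protease inhibitor, had 0.930, KRT19 0.818 and EPCAM 0.762. EPCAM was less ordered inside healthy (0.314), where array 1 had 6.85 and array 5 only 5.88. KRT18 had a rho of 0.629 at low levels of 2.50 to 4.25, KRT8 was too dim to rank, and CLDN1 was at -0.501. Myoepithelial genes were mostly below the filter: 3 of 12 measured were ranked, and 9, among them KRT14, ACTA2 and OXTR, were too dim. Of the 3, KRT5 opposed with -0.809, at 3.34 to 4.13. Its rho was only -0.175 with arrays centred and -0.427 with arrays scaled to hybridisation controls.

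Secretory machinery split within the pathway. Over 37 ranked genes the median rho was 0.154, 3 were at 0.8 or above and 0 at -0.8 or below. SPCS1, a signal peptidase subunit, had a rho of 0.930 (8.20 to 9.74) and SSR4, a subunit of the translocon, 0.846 (9.70 to 11.54). At the other end stood the chaperones HSP90B1 at -0.776 (7.14 to 10.06) and HSPA5 at -0.755 (9.23 to 10.94). The median turned to 0.406 with centred arrays and to -0.322 with arrays scaled to hybridisation controls, so no direction is given for the list. Of milk defence proteins PIGR, which carries antibodies across the epithelium, followed with 0.902 and ran from 3.87 through 7.43 to 9.52. LBP, which binds bacterial lipopolysaccharide, followed with 0.853, at up to 4.94. Under scaling to the hybridisation controls LBP was at 0.49 and PIGR at 0.727. FCGRT, the other antibody receptor of the list, was at -0.769 and B2M at -0.720. Transport genes were divided likewise, with a median of 0.154 over 14 that was negative under scaling to hybridisation controls, led by the nucleoside transporter SLC29A1 at 0.895 and the amino acid transporter SLC7A5 at 0.839 and ending with the calcium pump ATP2B1 at -0.755.

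**Figure D3:**
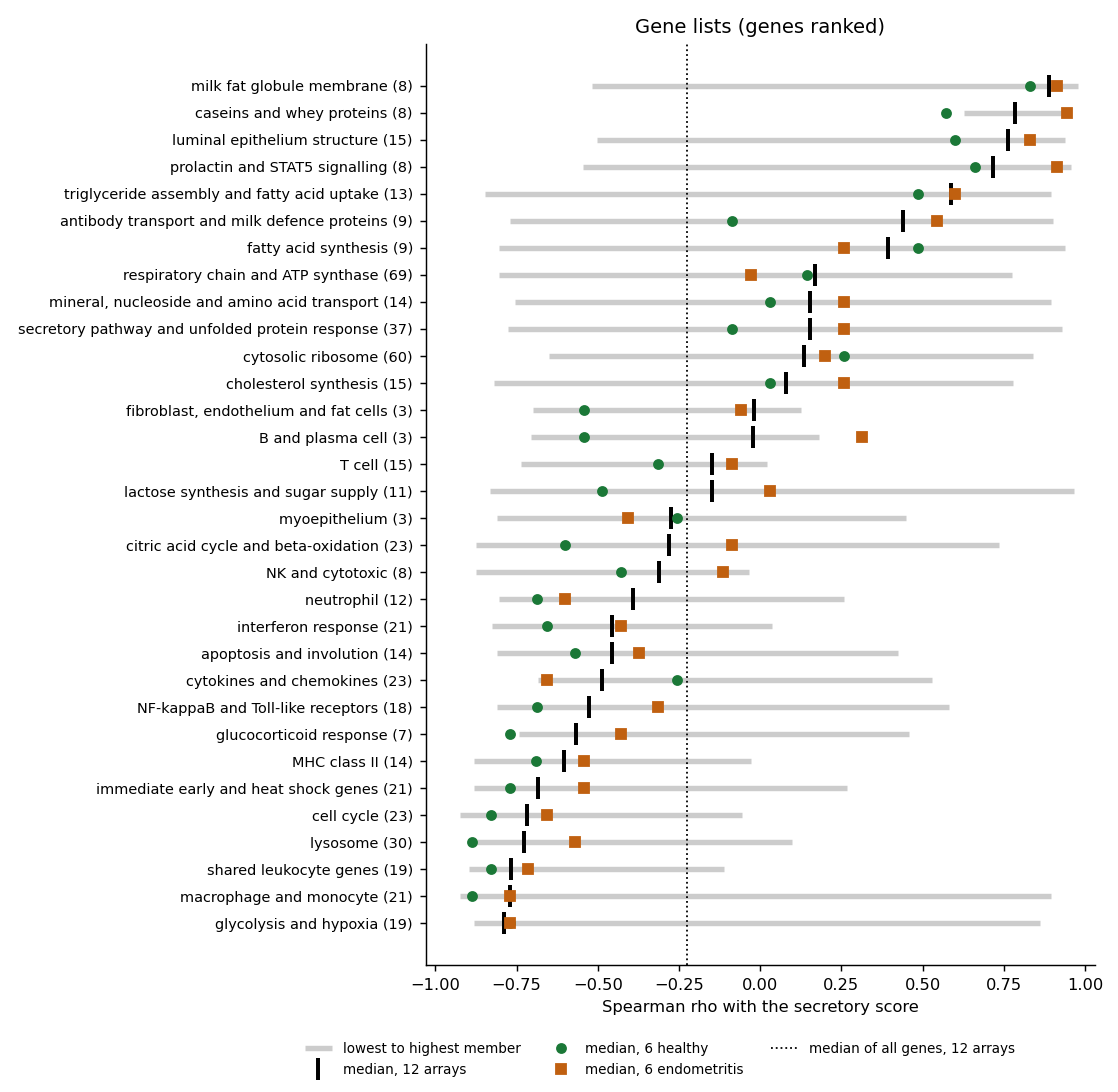
For each of 32 gene lists (number of genes ranked in brackets), the grey line runs from the lowest to the highest member's Spearman rho over the 12 arrays, the black tick is the median over the 12 arrays, and the circle and square are the medians inside healthy and inside endometritis. The dotted line is the median of all genes, -0.224. Milk fat globule membrane is highest at 0.888 and glycolysis and hypoxia lowest at -0.790.

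At the opposing end, macrophage genes had the same direction in both groups with 1 exception. Of 21 ranked macrophage and monocyte genes 20 had a negative rho, and these 20 were at -0.6 or below inside both groups, where 18.8% of all genes were. The median rho was -0.769 and 7 genes were at -0.8 or below, where 7.48% of all genes were. CTSD, a lysosomal protease, had -0.923 and ran from 5.15 through 7.55 to 9.73. LAPTM5, a lysosomal protein of blood cells, had -0.916 and ran from 7.10 to 10.82. C1QA, a complement subunit that tissue macrophages make, ran from 2.47 through 4.19 to 7.93, with a rho of -0.895. It was highest on endometritis array 5 and healthy array 6, the 2 lowest on the score, and lowest on endometritis array 3. APOE, a lipid carrier, had the steepest slope of all opposing genes at -0.995 and ran from 4.21 to 11.08. CD68 had a rho of -0.769 and ran from 7.23 to 11.72. The exception was FCGR2B, an inhibitory antibody receptor, which followed with 0.895 and was highest on endometritis arrays 3 (8.24) and 1 (7.97). The list's median stayed between -0.845 and -0.559 under every alternative tried.

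The genes with the lowest rho were less tied to a cell type. CCM2, a scaffold protein of the MAP kinase pathway, and FANCG, a DNA repair factor, had -0.958. TK1, thymidine kinase, had -0.956. Next were GNAI2, a G protein subunit abundant in leukocytes, TPM3, a tropomyosin, and MRPS31, a mitochondrial ribosomal protein, each at -0.951. GNAI2 ran from 5.29 through 7.33 to 8.76 and sat at 8.34 to 9.05 on the mastitis arrays. MYO1F, a myosin of myeloid cells, had -0.939 and COTL1, an actin-binding protein of leukocytes, -0.930. TWF2, DDB2, TARS2, MPHOSPH9, PPM1M, DCTN1 and NUP93 lay between -0.946 and -0.930. Another probe set of PPM1M was at -0.328 and another of MPHOSPH9 at -0.655. DDB2, at low levels of 2.52 to 3.57, was at -0.664 with arrays centred. The steepest after APOE were BRB, a brain-type ribonuclease, with a slope of -0.94, C1QA with -0.86, FOLR2, a folate receptor of tissue macrophages, with -0.83, and LGALS1, galectin 1, with -0.81.

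Genes common to leukocytes had a median rho of -0.767, and all 19 ranked members were below 0. At -0.8 or below were 6 of them, beside 7.48% of all genes. HCLS1, an adaptor of blood cells, had -0.895, ITGB2, the beta-2 integrin chain, -0.888, and PTPRC (CD45) -0.664. ITGB2 ran from 4.45 through 7.48 to 9.62, lowest on endometritis array 3 and highest on endometritis array 5. CD69 (-0.112) and CD52 (-0.343) were the loosest. MHC class II genes had a median of -0.605 over 14, with BOLA-DMB (-0.881) and IFI30 (-0.860) at the end and BOLA-DQB (-0.027), seldom above the floor, near 0. Probe sets of the BOLA-DQ and BOLA-DR genes can bind related gene copies, so their values are uncertain.

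T cell genes were only loosely ordered by the score. Of 15 ranked T cell genes 0 were past the threshold either way, and their median rho was -0.147 (-0.314 inside healthy, -0.086 inside endometritis). Without endometritis array 5 the median was -0.405. CD3E ran from 3.22 through a median of 3.83 to 6.59, with a rho of -0.126. Its highest values were on endometritis array 4 (6.59), endometritis array 2 (5.72) and healthy array 6 (5.52), which rank 10, 7 and 11 of 12 on the score. The mean level of the list was highest on the same 3 arrays, at 6.68, 6.08 and 5.51, and 2.94 to 4.20 on the other 9. Of 8 ranked NK and cytotoxic genes only NKG7 was past the threshold, at -0.874.

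Neutrophil genes had a median rho of -0.392 over the 12 arrays and lower ones inside each group, -0.686 in healthy and -0.60 in endometritis. Of the 12 ranked, 6 were at -0.6 or below in both groups, where 18.8% of all genes were. Over the 12 arrays the median was -0.523 without endometritis array 5 and 0.042 after correction for the dap controls. S100A9, a main cytosolic protein of neutrophils, had a rho of -0.189, and CXCR1, their interleukin-8 receptor, -0.091. Both were highest on endometritis array 6 (7.52 and 8.28) and healthy array 1 (6.99 and 7.48), which rank 8 and 9 of 12 on the score. CYBA (-0.804), an oxidase subunit that macrophages share, and S100A12 (-0.776) were at the opposing end, and G0S2 (0.259) and MMP9 (0.014) at the other. The list's mean level was 7.46 and 7.23 on those 2 arrays and 4.48 to 5.92 on the rest of the 12, against 8.81 to 10.07 on the mastitis arrays. B cell genes had a median of -0.021 over 3 and fibroblast, endothelial and fat cell genes -0.019 over 3. These medians turned positive when arrays were centred and are those of MS4A1 (mean 2.63) and PECAM1 (2.775), close to the floor. IGHM (mean 6.06) was at -0.706 and VIM (9.99) at -0.699, while JCHAIN was at 0.182 and COL1A1 at 0.126. The mean level of the lists had a rho of -0.699 and -0.685. Erythroid genes, 8 measured, were all too dim to rank, and so were COL3A1, a collagen, and VWF, an endothelial marker.

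**Figure D4:**
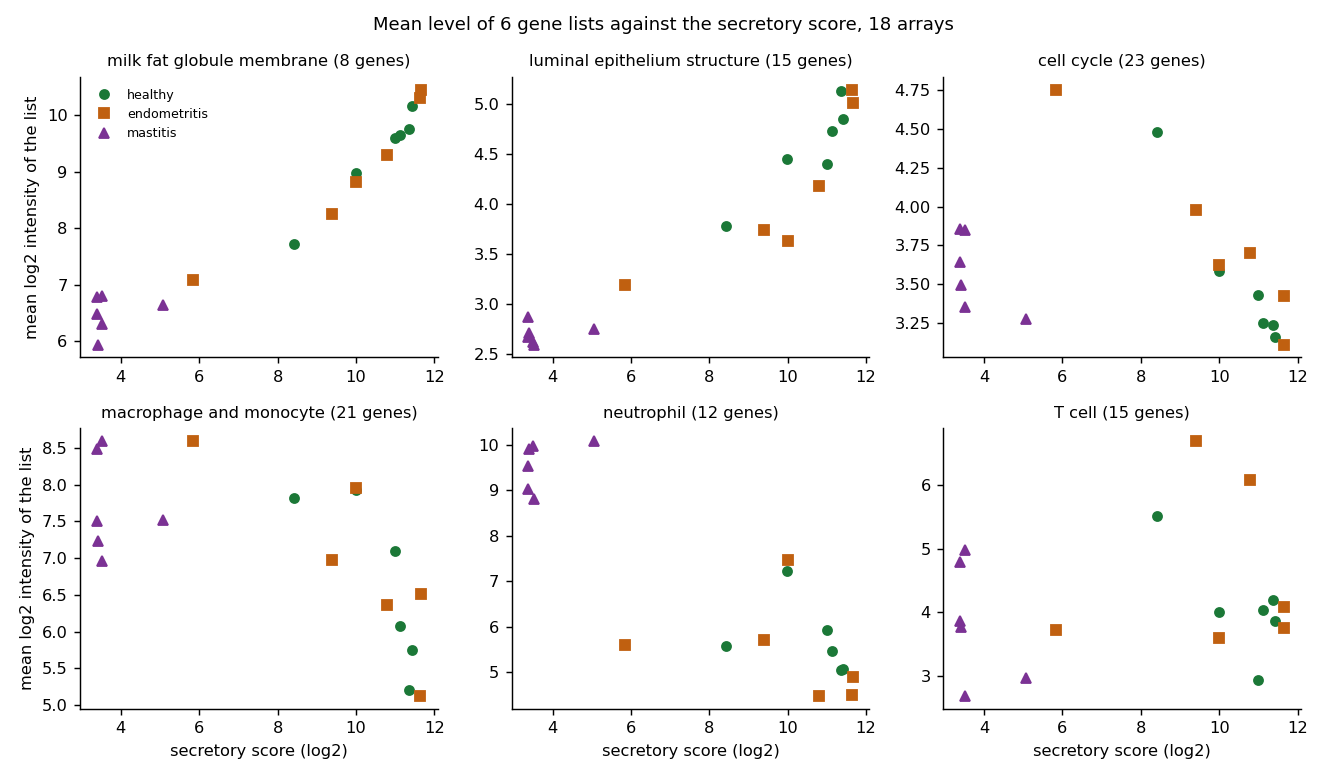
Each point is 1 of 18 arrays, with the secretory score on the x axis and the mean log2 intensity of a gene list on the y axis. Circles are healthy, squares endometritis and triangles mastitis arrays. Milk fat globule and epithelial genes climb with the score, macrophage and cell cycle genes are lower at higher scores among the 12 arrays, and T cell genes stand out on 3 arrays (6.68, 6.08 and 5.51). Neutrophil genes are at 8.81 to 10.07 on the mastitis arrays and at most 7.46 on the others.

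Lysosomal and glycolytic genes lay beside the macrophage genes. Of 30 ranked lysosome genes 27 were below 0 and 6 at -0.8 or below, with a median rho of -0.727. PSAP, which yields the activators of lipid breakdown, had -0.895 (6.88 to 10.39) and GUSB, beta-glucuronidase, -0.867 (4.17 to 8.04). Of 19 ranked genes of glycolysis and hypoxia 18 were below 0 and 7 at -0.8 or below, with a median of -0.790, the lowest of all lists. Beside these counts, 7.48% of all genes were at -0.8 or below and 38.4% were above 0. LDHA, lactate dehydrogenase, ran from 6.90 through 9.60 to 11.74 with a rho of -0.881, and TPI1 had -0.853. LDHA was at or above 10.60 on the 5 arrays of the lowest scores and at or below 9.73 on the other 7. ALDOC, the aldolase C isoform, went the other way with 0.860, from 5.07 to 7.12, and VEGFA was at -0.357.

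Cell cycle genes opposed at low levels. All 23 ranked were below 0, with a median rho of -0.719, and 6 were at -0.8 or below. Of all genes 38.4% were above 0 and 7.48% at -0.8 or below. MCM4, a subunit of the replicative helicase, had -0.923 and ran from the floor through 2.88 to 4.49. It was highest on endometritis array 5 (4.49) and healthy array 6 (4.26). AURKB, a mitotic kinase, had -0.884, but only those 2 arrays were above 3 (4.12 and 3.51) and the rest at 2.48 to 2.83, so its rank order among them rests on values near the floor. MCM5 (-0.203) and CCND3 (-0.056) were loose, and both turned positive when arrays were centred. With that centring MCM4 stayed at -0.832 and CDK1 at -0.79, but AURKB was at -0.343 and PLK1 moved from -0.719 to -0.014. The list's median came as close to 0 as -0.476 among the alternatives run.

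Stress and signalling lists had negative medians, against -0.224 for all genes, but few members past the threshold. At -0.8 or below were 3 of 21 immediate early and heat shock genes and 2 of 18 NF-kappaB and Toll-like receptor genes. So were 1 of 14 apoptosis and involution genes, 1 of 21 interferon response genes and 0 of 7 glucocorticoid response genes. Of all genes 7.48% were at -0.8 or below. Immediate early and heat shock genes had a median rho of -0.685 over 21, with IER2 at -0.881 and FOS at -0.811, CRYAB at 0.266 and DNAJA1 at 0.238. NF-kappaB and Toll-like receptor genes had -0.528 over 18, from RELA at 0.580 to CHUK at -0.811. Glucocorticoid response genes had -0.566 over 7 and apoptosis and involution genes -0.456 over 14. Cytokines and chemokines had -0.486 over 23 with 0 past the threshold, and were looser inside healthy (-0.257) than inside endometritis (-0.657), a difference that was not tested. Interferon response genes had -0.455 over 21, with IRF9 at -0.824, and the median was 0.014 after correction for the dap controls.

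Ribosome and respiratory chain lists lay near 0, and their sign changed with the scaling. Cytosolic ribosome genes had a median rho of 0.136 over 60, 1 following (RPL4 at 0.839) and 0 opposing, and the median was 0.35 with centred arrays, -0.203 with arrays scaled to hybridisation controls and -0.114 without endometritis array 5. Respiratory chain and ATP synthase genes had 0.168 over 69, with 0 following and 2 opposing, and -0.147 after correction for the GAPDH difference. Within that list ATP5ME, a small subunit of ATP synthase, was at 0.776 and ATP5F1B, its catalytic subunit, at -0.804. Citric acid cycle and beta-oxidation genes had -0.280 over 23, a median that stayed below 0 under every alternative run (-0.509 to -0.173), with IDH2 at -0.874 and ACADVL at -0.818 among the 3 opposing, and ECHS1 at 0.734.

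**Figure D5:**
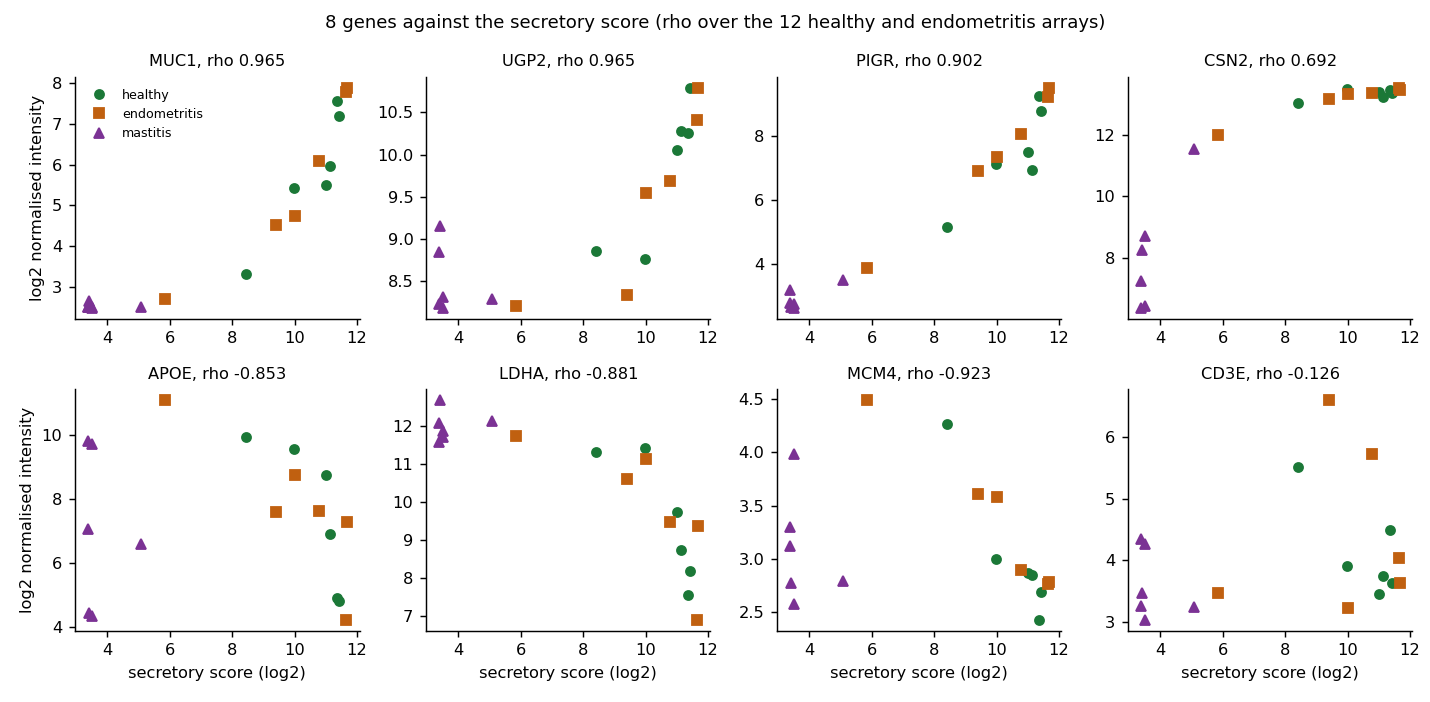
Each panel plots the log2 normalised intensity of 1 gene (y axis) against the secretory score (x axis) on 18 arrays, with circles for healthy, squares for endometritis and triangles for mastitis, and rho over the 12 healthy and endometritis arrays in the title. MUC1, UGP2 and PIGR climb with the score, CSN2 is above 13 on all of the 12 arrays but endometritis array 5 (12.00) and lower on mastitis arrays, APOE, LDHA and MCM4 are lower at higher scores among the 12, and CD3E is high on 3 arrays.

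A small number of genes ran in opposite directions in the 2 groups. LIN52 had a rho of 0.714 inside healthy and -0.870 inside endometritis, PIR 0.657 and -0.886, DXO 0.829 and -0.696, ADISSP 0.714 and -0.771, and EXOSC1 0.771 and -0.714. The reverse held for SEC23IP (-0.943 and 0.771), CD1B (-0.771 and 0.928), LMO7 (-1.0 and 0.543), API5 and VCL (both -0.771 and 0.771). Most of them spanned little. DXO ran from 2.51 to 2.93 and LIN52 from 2.92 to 3.52. PIR spanned most, from 3.38 to 6.16, with its highest values on healthy arrays 4, 3 and 2. These were the most extreme of 6513 genes over 6 arrays a group, and the difference was not tested.

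The mastitis arrays, whose scores lay below all of the 12, were also apart from the 12 for some of these genes. Of the 419 following genes 125 (29.8%) were lower on every mastitis array than on each of the 12, where 6.46% of all genes were, and 0 were higher on every one. Of the 487 opposing genes 52 (10.7%) were higher on every mastitis array, where 5.68% of all genes were, and 0 were lower. Leaving out endometritis array 5, a choice made after its score was seen and one that can only add to such counts, gave 180 (43.0%; 8.14% of all genes) and 69 (14.2%; 6.39% of all genes). The following genes averaged less on mastitis arrays in 403 of 419 cases, by a median of -1.13, against -0.11 for all genes. The opposing genes averaged more in 371 of 487, by a median of 0.52. The shares of all genes that averaged less or more were not counted, so only the medians can be compared with all genes. On every mastitis array 7 of 8 caseins and whey proteins were below the 12, and 9 of 12 neutrophil genes above them. Of 21 macrophage genes 2 were above the 12 on every mastitis array and 0 below, with a median difference of 1.12 between the means. APOE and FOLR2, which opposed the score, averaged less on mastitis arrays than on the 12, by -0.62 and -1.31. GPNMB, with a rho of -0.797 just short of the threshold, differed by -2.77. Among the mastitis arrays themselves, 32 of the 419 following genes (7.64%) had a rho of at least 0.6 with the score, against 8.12% of all genes. The mastitis scores spanned 1.69 log2 units only because mastitis array 1 was at 5.06, with the others at 3.38 to 3.52. BTN1A1 was at the same lowest value, 2.63, on most of them. A rho over arrays so close in score cannot tell whether the gradient holds there.

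Other probe sets of a gene did not always reach the same rho. Of the following genes 84 had more than 1 probe set above the median, all of them at 0.6 or above for 60 genes, with at least 1 below 0 for 5. Of the opposing genes 101 had more than 1, all at -0.6 or below for 52, with at least 1 above 0 for 11.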

How the data were processed

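RNA from milk cells was measured on 18 Affymetrix bovine genome arrays, 1 cow each. Per the labels' protocols, only RNA whose integrity number exceeded 6 went on, and 100 ng of total RNA gave labelled RNA of which 10 µg were hybridised. The deposited values are log2 normalised intensities made by the authors. RMA, GCRMA and limma are listed in the submitters' processing notes, without version, role or order. The log base is not given in the sources used here and was read from the range, 2.429 to 14.23. On the 12 arrays 26.8% of values lie within 0.001 of the array floor, so low genes have little order. The genome build is not given in the sources used here, and no coordinates are printed.

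Of 24128 probe sets 112 are controls. Of the others, 13292 have 1 gene symbol in the platform annotation, 86 several and 10638 none. Symbols were checked by Entrez identifier against a gene table of assembly ARS-UCD2.0, in which 18 were absent, and 0 differed. Each of 9155 genes was read at whichever of its probe sets was brightest on average over 18 arrays, and 2638 were too dim. Columns of no sample numbered 0. Spearman's rho with the score was computed with Python 3.11.15, numpy 2.4.6, pandas 2.3.3 and scipy 1.17.1, and tested on simulated data. The score and the genes share the same normalised arrays, and only the number of arrays, 6 a group, sets the precision.

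The gradient, its markers and the 33 gene lists were chosen with earlier results of these data known. Named genes are the 15 of highest and of lowest rho, the 5 steepest per direction past 0.8, the 2 highest and 2 lowest of each list, the 5 of largest difference of rho between groups each way, and CSN2, CSN3, LALBA, PAEP, KRT8, KRT18, EPCAM, PTPRC, CD68, CD3E and S100A9. CD74 was not matched under that name. Any other gene named was chosen after its values were seen. A planned count of promoter motifs was not analysed here. Alternatives were Pearson's r, other scores, filters, scalings and thresholds, corrections for GAPDH and (added after seeing the data) dap controls, and leaving out each array. No test between groups was made.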

Additional observations from a re-analysis of the deposited data

Results flagged for a closer look

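In 80 checks of groups of 6 arrays, an array lay far from the rest of its group 6 times, which chance alone does in about 1 of 20 groups. On endometritis array 5, ELF5 read 6.13 where the next lowest of its group was 9.85, and FASN read 7.32 where the next was 10.47. The mean level of fatty acid synthesis genes on that array was 6.33, with 7.33 next, and that of the 3 ranked myoepithelial genes was 3.35, the highest of its group, with 2.95 next. Healthy array 3 had the highest dap controls, 9.03 with 7.44 next. Healthy array 6 had the highest mean level of cell cycle genes among healthy arrays, 4.48 with 3.59 next. The score itself was not flagged by this check in either group. On endometritis array 5 it read 5.84, where the next lowest of its group was 9.40.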

How the results depend on the processing

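Of the genes ranked, 6.43% followed the score, 7.48% opposed it, 12.0% followed and 18.8% opposed in both groups. In that order, scaling to hybridisation controls gave 2.40%, 0.0307%, 3.44% and 7.43%. The score of milk proteins gave 0.876%, 1.44%, 2.49% and 6.85%, and correction for the GAPDH difference 1.98%, 2.04%, 5.28% and 7.45%. With every probe set, named or not, the shares were 6.21%, 6.35%, 11.02% and 16.7%, or 779, 797, 1383 and 2095 of 12553 probe sets. Correction for the dap controls, added after seeing the data, gave 2.58% following, 3.27% opposing and 12.2% opposing in both groups. Centring gave 10.99% following and 21.6% following in both groups, and Pearson's r gave 2.40% following. A threshold of 0.7 gave 11.2% and 17.9%, one of 0.9 gave 1.69% and 0.875%, and one of 0.8 inside the groups 3.53% and 4.22%. Leaving out 1 array gave 5.02% to 8.35% following, 5.73% to 13.5% opposing, 9.03% to 14.8% following in both groups and 16.7% to 24.0% opposing in both. The cause of these shifts was not tested. No paired analysis was possible because the labels give no replicate number: the arrays of a group were numbered in the order they are listed, and the numbers in their titles are not shared between groups. Of 32 list medians 14 were at or beyond 0.5 either way, and all 14 kept their sign under every alternative run. Values near the floor, and caseins near the top of the scale, limit how finely arrays can be ranked.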

Other observations

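Probe sets of 1 gene did not always rank the arrays alike. IDH1 had a rho of 0.937 at its brightest probe set and -0.119 at its lowest, and HSPA1A -0.105 and -0.608. FABP4 ran from 4.07 to 12.37 and had a slope of -1.06 per unit of score, although its rho of -0.643 did not reach the threshold. Inside healthy its rho was -0.943 and inside endometritis -0.371, a difference that was not tested.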
